A study of Mus musculus with 16 samples.

Results

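Chemokines and their receptors were followed in RNA of whole mouse kidney. Members were taken by name: every gene symbol that starts with Ccl, Cxcl, Cx3cl, Ccr, Cxcr or Cx3cr followed by a digit. This gave 55 genes among 23935 symbols, of which 37 encode ligands and 18 encode receptors. The kidneys came from wild-type (WT) mice in 4 groups of 4 libraries: cisplatin preceded by nicotinamide mononucleotide (NMN), cisplatin preceded by nicotinamide riboside (NR), cisplatin alone, and phosphate-buffered saline (PBS). Cisplatin is a platinum drug toxic to the kidney tubule, and NMN and NR are compounds from which cells make the cofactor NAD. Every group but PBS received cisplatin, the precursor was given before the drug, and tissue was taken 3 days after it. The sources used here do not give doses, sex or age. Nothing in the labels ties each library to an animal of its own. The p-values therefore reflect only how far these samples scatter, and that scatter may be technical. The questions are what cisplatin changed in these genes, what NMN or NR before cisplatin changed, how far the precursor groups lay from PBS, and whether the precursors differed from each other.

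Chemokines are small secreted proteins that form gradients along which leukocytes move, and their receptors are G protein-coupled receptors on the moving cells. Inflammatory chemokines are made on demand by injured epithelium, endothelium and macrophages, and homeostatic ones are made steadily to place lymphocytes, stem cells and dendritic cells in tissue. Several ligands share a receptor, and the genes of functionally close ligands often sit next to each other. In the kidney, tubule cells themselves can be a source of ligands, while the receptor-bearing leukocytes are a small part of the tissue.

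Expression was given as length-scaled transcript abundance (TPM), which scales each gene by its length and each library to a fixed total. Read depth cannot be had from TPM, so the depth of each value is unknown. A gene was tested if 4 or more of the 16 libraries held 1 TPM or more, which 12960 genes met. Of the chemokine family 28 members met it: 24 of the 37 ligands and 4 of the 18 receptors. Cxcl3 and Cxcl5 met it through the libraries of cisplatin alone. For them the minimum is not independent of any comparison with that group, whether of PBS, NMN or NR. Changes are differences of log2(TPM + 1), which understate the change of genes with low values. They were tested with limma, and a gene is called higher or lower at an adjusted p under 0.05. Summed over all ligands, the kidneys held 258 ± 52.7 TPM with NMN, 261 ± 48.5 TPM with NR, 422 ± 52.8 TPM with cisplatin alone and 217 ± 73.4 TPM with PBS (SD, n = 4 each). Summed over all receptors they held 8.38 ± 1.66 TPM, 7.42 ± 1.67 TPM, 7.74 ± 3.02 TPM and 7.86 ± 2.30 TPM in the same groups. Ligand RNA therefore outweighed receptor RNA in every group. In bulk tissue, fewer cells of a type and less RNA per cell cannot be told apart.

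Cisplatin moved the family in both directions. Of the 28 tested members 13 were higher and 6 lower than with PBS, where 40.7% and 18.6% of all tested genes were called higher and lower. The 19 called members are 67.9% of those tested, against 59.4% of all tested genes, so a call as such was common in this comparison. The libraries of the groups did not overlap for 19 members, and did not overlap for 50.8% of all tested genes. The median change of the members was 0.72, against 0.27 for all tested genes. All 13 members that were higher are ligands. The 6 that were lower are 5 ligands and the receptor Cx3cr1. In TPM the median of all tested genes lay above 0 in this comparison, and after median-of-ratios scaling, which brings it to 0.0042, 12 members were higher and 7 lower.

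**Figure D1:**
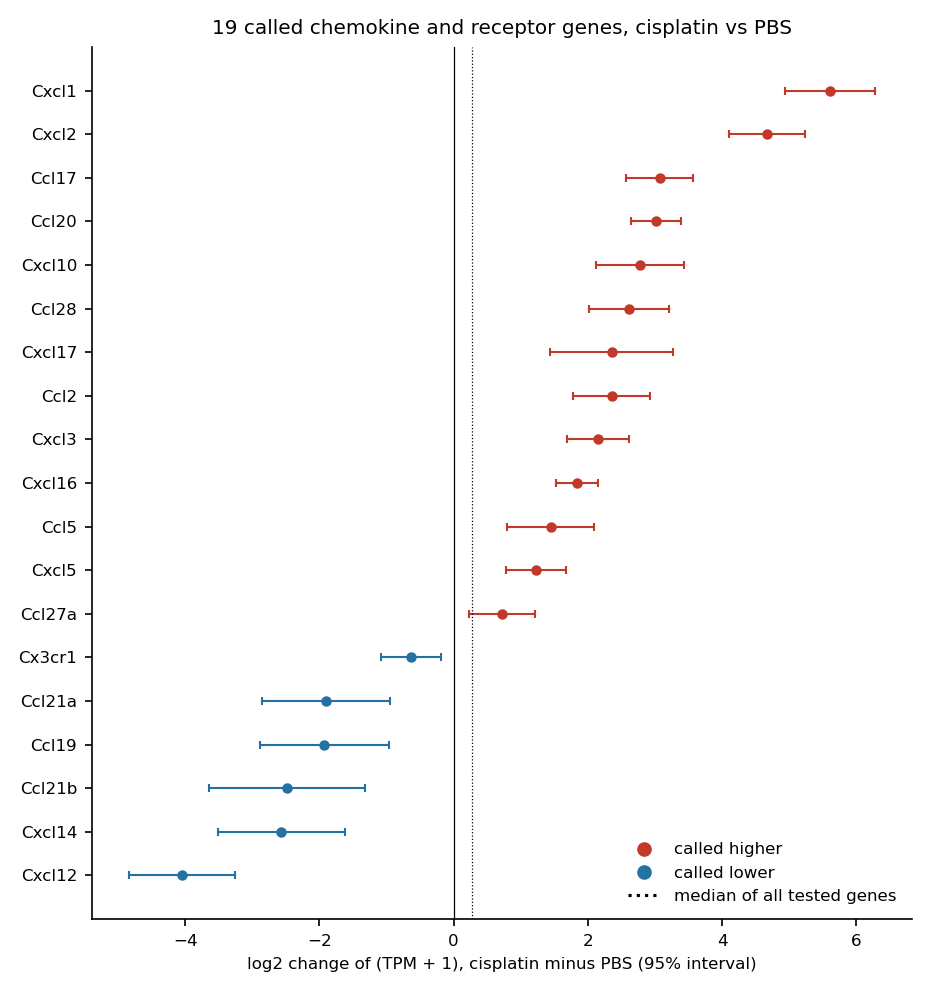
Log2 change of (TPM + 1), cisplatin minus PBS, for the 19 members called in this comparison, with the 95% interval from limma. Red points were called higher and blue points lower; the dotted line is the median of all tested genes. Cxcl1 stands at one end with 5.61 and Cxcl12 at the other with -4.05.

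The largest rises were those of Cxcl1 and Cxcl2, which attract neutrophils through the receptor Cxcr2. Cxcl1, the main inducible neutrophil attractant of the mouse, was listed at 107, 92.1, 107 and 96.3 TPM in the 4 cisplatin libraries, against 0.25, 2.51, 1.72 and 0.57 TPM with PBS. The groups lay far apart, and the change was 5.61 ± 0.32 (log2 ± SE; limma, adjusted p = 1.12e-10). Cxcl1 ranked first among the 28 tested members with cisplatin, and its mean TPM was 79.8-fold that with PBS. Cxcl2, a second ligand of this receptor, was listed at 42.5, 20.5, 23.7 and 27.6 TPM with cisplatin, against 0.57 TPM in 1 PBS library and 0 in the other PBS libraries (log2 change 4.67 ± 0.27, adjusted p = 8.90e-11). Cxcl3 ranged from 1.89 to 5.83 TPM with cisplatin and was listed at 0 in every PBS library, and Cxcl5 ranged from 1.07 to 1.83 TPM with cisplatin and from 0 to 0.16 TPM with PBS. Both were called higher, by 2.15 ± 0.22 and 1.23 ± 0.21. The levels of these ligands with cisplatin spanned a wide range, with Cxcl1 on top; the calls of Cxcl3 and Cxcl5 were favoured by the minimum, which only their cisplatin libraries met.

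These 4 genes are neighbours. In GRCm38 (GENCODE vM21) they lie with Cxcl15, which was listed at 0 in all libraries, in a stretch of chromosome 5 from 90759360 to 90905938. Cxcl1 itself spans 90891241 to 90893115 and Cxcl2 spans 90903871 to 90905938. Of the 28 tested members 22 have a promoter window in RefSeq (GRCm38.p6), and the 250 bases before the start were searched on both strands for the consensus of NF-kB, the transcription factor that switches on inflammatory genes. It was found for 5 of the 8 members that were higher with cisplatin and have a window, for 0 of the 6 that were lower and for 1 of the 8 that were not called, Ccl9; 3.9% of all 32851 windows hold it. The 5 higher members with a match include Cxcl1, Cxcl2 and Cxcl3, neighbours with the same matched letters, so they are not independent cases. Cxcl3 met the minimum for testing through the libraries of cisplatin alone, which favoured its place among the higher members. The matching stretches are shown because all 5 genes rose with cisplatin. Base -1 is the last base before the RefSeq start, and the matched letters are in capitals.
Cxcl1, chr5:90891135-90891214, plus strand, bases -110 to -31: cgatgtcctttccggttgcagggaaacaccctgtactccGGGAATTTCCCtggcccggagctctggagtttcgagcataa
Cxcl2, chr5:90903769-90903848, plus strand, bases -130 to -51: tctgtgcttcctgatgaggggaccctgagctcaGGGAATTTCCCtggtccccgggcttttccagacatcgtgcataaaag
Cxcl3, chr5:90785991-90786080, plus strand, bases -110 to -21: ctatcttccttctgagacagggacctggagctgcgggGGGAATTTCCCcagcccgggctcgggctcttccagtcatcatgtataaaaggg
Ccl20, chr1:83116656-83116725, plus strand, bases -110 to -41: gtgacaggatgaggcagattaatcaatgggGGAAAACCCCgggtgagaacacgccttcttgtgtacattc
Cxcl10, chr5:92348950-92349109, minus strand, bases -220 to -61: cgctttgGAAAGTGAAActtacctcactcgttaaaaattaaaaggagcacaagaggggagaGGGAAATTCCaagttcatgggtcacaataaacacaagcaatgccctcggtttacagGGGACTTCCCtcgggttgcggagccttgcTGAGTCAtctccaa
Cxcl1, Cxcl2 and Cxcl3 carry the same 11 capital letters, in which a match on each strand overlaps. The Cxcl10 stretch holds 2 such matches, and its other capitals are the core of the interferon-stimulated response element and TGANTCA, the AP-1 site. These 2 motifs occur in 2.98% and 6.75% of all windows. TATAAA, the letters of the TATA box, was found for 1 of the 8 higher members, 0 of the 6 lower ones and 6 of the 8 not called, against 12.37% of all windows. Exact matches were counted at any position of the 250 bases and on either strand. On the strand of the gene the match lay at -31 to -26 for Ccl12 and at -32 to -27 for Ccl8. It lay at -30 to -25 for Cxcr4 and for Cxcl3, the higher member. For Ccl25 it lay at -16 to -11, for Cx3cl1 at -6 to -1 and for Ccl9 at -92 to -87. The counts are of letters, and use of a match as a TATA box was not tested. A match says which letters are there and nothing about binding in these kidneys. No window was at hand for Ccl2, Ccl5, Cxcl16, Cxcl17 and Cxcl5, among others.

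The receptor side of this axis was near the floor of the table. Cxcr2, the neutrophil receptor for these ligands, ranged from 0.17 to 0.52 TPM with cisplatin and from 0 to 0.11 TPM with PBS, and was not tested; Cxcr1 was listed at 0 in all libraries. Of 11 neutrophil markers 4 were tested and 0 were called in cisplatin against PBS (limma). Their summed level ranged from 5.95 to 24.25 TPM with cisplatin and from 2.24 to 12.71 TPM with PBS, and the groups overlapped. Mpo and Camp, granule genes of immature neutrophils, were listed at 0 in every cisplatin and every PBS library. The neutrophil marker Ly6g was listed at 0.39, 0.41, 0 and 0.74 TPM with cisplatin. Elane and Ngp were above 0 in at least 1 cisplatin library. No PBS library had a value above 0 for any of these markers. Cxcl1, Cxcl2, Cxcl3 and Cxcl5 separated the groups without overlap, which the minimum favoured for Cxcl3 and Cxcl5. Cxcr2 did not overlap either, at values near the floor. The summed neutrophil markers, led by S100a9 and S100a8, did overlap. Of all tested genes 50.8% did not overlap between these groups. The part of neutrophils in the ligand changes was not tested.

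A second set of risers attracts T cells, dendritic cells and B cells. Ccl20, the ligand of Ccr6 on dendritic cells and interleukin-17-producing T cells, was listed at 9.13, 6.29, 9.10 and 6.03 TPM with cisplatin, against 0.21 TPM in PBS library 2 and 0 in the other PBS libraries (log2 change 3.02 ± 0.18, adjusted p = 1.01e-10). Ccl17, which draws Ccr4-bearing T cells, was listed at 8.80, 9.38, 8.0 and 10.55 TPM with cisplatin, against 1.14 TPM in PBS library 2 and 0 in the others (3.07 ± 0.24, adjusted p = 3.45e-09). Both genes were thus plainly present in all cisplatin libraries and at or near 0 with PBS. Ccl22, the other Ccr4 ligand and a neighbour of Ccl17 on chromosome 8, stayed between 0 and 0.88 TPM in all 16 libraries and was not tested. Cx3cl1 lies between them and was not called, so neighbours in this stretch differed in their calls. The receptors Ccr4 and Ccr6 were listed at 0.39 and 0.17 TPM or less in every library.

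Cxcl10, an interferon-induced ligand of Cxcr3 on activated T and NK cells, was listed at 46.4, 30.1, 30.0 and 32.9 TPM with cisplatin, against 2.56, 5.03, 9.32 and 2.17 TPM with PBS. Its mean was 7.31-fold that with PBS (log2 change 2.78 ± 0.31, adjusted p = 5.87e-07). Its relatives on the same receptor stayed low. Cxcl9 ranged from 0 to 0.14 TPM with cisplatin and from 0.18 to 1.06 TPM with PBS, and Cxcl11 from 0.34 to 0.98 TPM with cisplatin and from 0 to 0.28 TPM with PBS, neither of them tested. The highest Cxcl9 value, 6.0 TPM, was in NMN library 2. Cxcr3 ranged from 0 to 0.22 TPM with cisplatin and from 0.33 to 0.70 TPM with PBS, so that its values lay lower where those of Cxcl10 lay higher; it too missed the minimum. Cxcl10 shares 5.91% of its exon bases with Art3 on the opposite strand, and Art3 was listed at 3.47 ± 2.66 TPM with cisplatin and 3.86 ± 1.45 TPM with PBS.

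Cxcl16 is made as a membrane-bound protein and binds Cxcr6 on T and NKT cells. It was listed at 85.6, 80.8, 81.0 and 76.6 TPM with cisplatin, against 17.0, 32.6, 20.1 and 20.6 TPM with PBS. The cisplatin libraries lay within a narrow band and well above the PBS libraries, with a mean 3.58-fold as high (log2 change 1.84 ± 0.15, adjusted p = 5.26e-09). It was thus the second most abundant member with cisplatin, with 17.0 TPM or more in every PBS library as well. Cxcr6 stayed at 0.61 TPM or less in every library. Of the exon bases of Cxcl16, 18.27% overlap Zmynd15 on the opposite strand, which was listed at 6.01 ± 1.30 TPM with cisplatin and 3.11 ± 0.676 TPM with PBS; whether counting used strand is not stated in the sources used here.

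Of the ligands that draw monocytes and macrophages, Ccl2 and Ccl5 were called higher. Ccl2, the ligand that recruits Ccr2-bearing monocytes, was listed at 9.61, 3.37, 7.70 and 6.47 TPM with cisplatin, against 0, 1.16, 0.52 and 0.35 TPM with PBS (log2 change 2.35 ± 0.27, adjusted p = 6.76e-07). Ccl5, a ligand of Ccr1 among other receptors, made by T cells and by inflamed epithelium, was listed at 20.4, 12.3, 10.8 and 16.8 TPM with cisplatin, against 3.13, 7.56, 3.34 and 6.10 TPM with PBS (1.44 ± 0.31, adjusted p = 0.000574). Their neighbours on chromosome 11 were not called with them. Among the relatives of Ccl2 in the stretch from 82035571 to 82305690, Ccl12 averaged 0.63 ± 0.645 TPM with cisplatin and 0.69 ± 0.806 TPM with PBS, and Ccl8 averaged 3.54 ± 7.08 TPM and 1.43 ± 1.84 TPM in the same order, neither called. The Ccl8 mean with cisplatin was made by library 1 alone, at 14.17 TPM beside 0 in the other cisplatin libraries. Ccl7, at 0 in every PBS library, reached 3.79 TPM in cisplatin library 1 and 0.10 to 1.08 TPM in the others, and missed the minimum.

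The rodent myeloid chemokines Ccl6 and Ccl9 share the other stretch of chromosome 11, from 83525778 to 83664683, with Ccl5. Ccl6 was listed at 26.0, 8.43, 4.78 and 4.88 TPM with cisplatin, against 2.96, 8.82, 2.46 and 2.02 TPM with PBS (1.1 ± 0.47, adjusted p = 0.0545). It was called higher without PBS library 2 (adjusted p = 0.0121), without cisplatin library 3 (0.0312) or without cisplatin library 4 (0.0328). Ccl9 averaged 2.95 ± 1.52 TPM with cisplatin and 1.86 ± 2.29 TPM with PBS (adjusted p = 0.158), and was called higher without PBS library 2 (adjusted p = 0.00854). PBS library 2 thus carried the highest PBS value of both genes. Ccl3 and Ccl4, the macrophage inflammatory proteins of this stretch, stayed under 1 TPM in every library.

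On the receptor side, Ccr2, the monocyte receptor for Ccl2, averaged 0.825 ± 0.711 TPM with cisplatin and 1.06 ± 0.762 TPM with PBS (log2 change -0.19, 95% half-width 0.62, adjusted p = 0.597). It was not called, and its interval leaves room for a sizeable change at so low a level. Of 12 monocyte and macrophage markers 2 were higher and 3 lower, with a median change of -0.25. The summed level of the 12 ranged from 171.51 to 280.03 TPM with cisplatin and from 57.18 to 137.32 TPM with PBS. Cd68 led this sum, at 105 ± 11.3 TPM with cisplatin and 3.48 ± 2.10 TPM with PBS. Cd14 averaged 37.6 ± 4.90 TPM and 1.83 ± 1.21 TPM in the same order, and Csf1r 5.15 ± 0.884 TPM and 17.3 ± 4.61 TPM. The T and NK cell markers summed to 0.96 to 2.81 TPM with cisplatin and 2.60 to 6.48 TPM with PBS, with Ncr1 and Klrb1c at 0 in every cisplatin library, and the 1 tested marker was not called. Both tested B and plasma cell markers were higher, with sums of 3.62 to 16.86 TPM with cisplatin and 2.16 to 3.99 TPM with PBS. The part of these cells in the ligand changes was not tested.

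Ligands that are otherwise known from mucosa and skin were also higher with cisplatin. Ccl28, made by epithelia and read by Ccr10 and Ccr3, was listed at 6.88, 16.7, 10.6 and 14.3 TPM with cisplatin, against 1.23, 0.85, 0.66 and 1.59 TPM with PBS (log2 change 2.61 ± 0.29, adjusted p = 3.30e-07). Cxcl17, a chemokine of mucosal surfaces, was listed at 9.23, 3.08, 6.86 and 4.24 TPM with cisplatin, against 0, 0.65, 0 and 0.52 TPM with PBS (2.36 ± 0.43, adjusted p = 0.000158). Each separated the groups without overlap. Ccl27a, the skin T cell attractant that also uses Ccr10, was listed at 55.8, 41.8, 57.2 and 51.0 TPM with cisplatin, against 26.5, 32.8, 36.4 and 27.6 TPM with PBS. Its change of 0.72 ± 0.23 (adjusted p = 0.0130) was the smallest among the called rises, and the call ended after median-of-ratios scaling (adjusted p = 0.117) and without PBS library 1 and cisplatin library 1 together (0.0801). Of the 50-base words of its transcripts, 44.98% occur in another gene as well, so its reads may be shared with its copies. Ccr10 ranged from 0.07 to 1.13 TPM with cisplatin and from 0.32 to 1.1 TPM with PBS, without being tested.

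**Figure D2:**
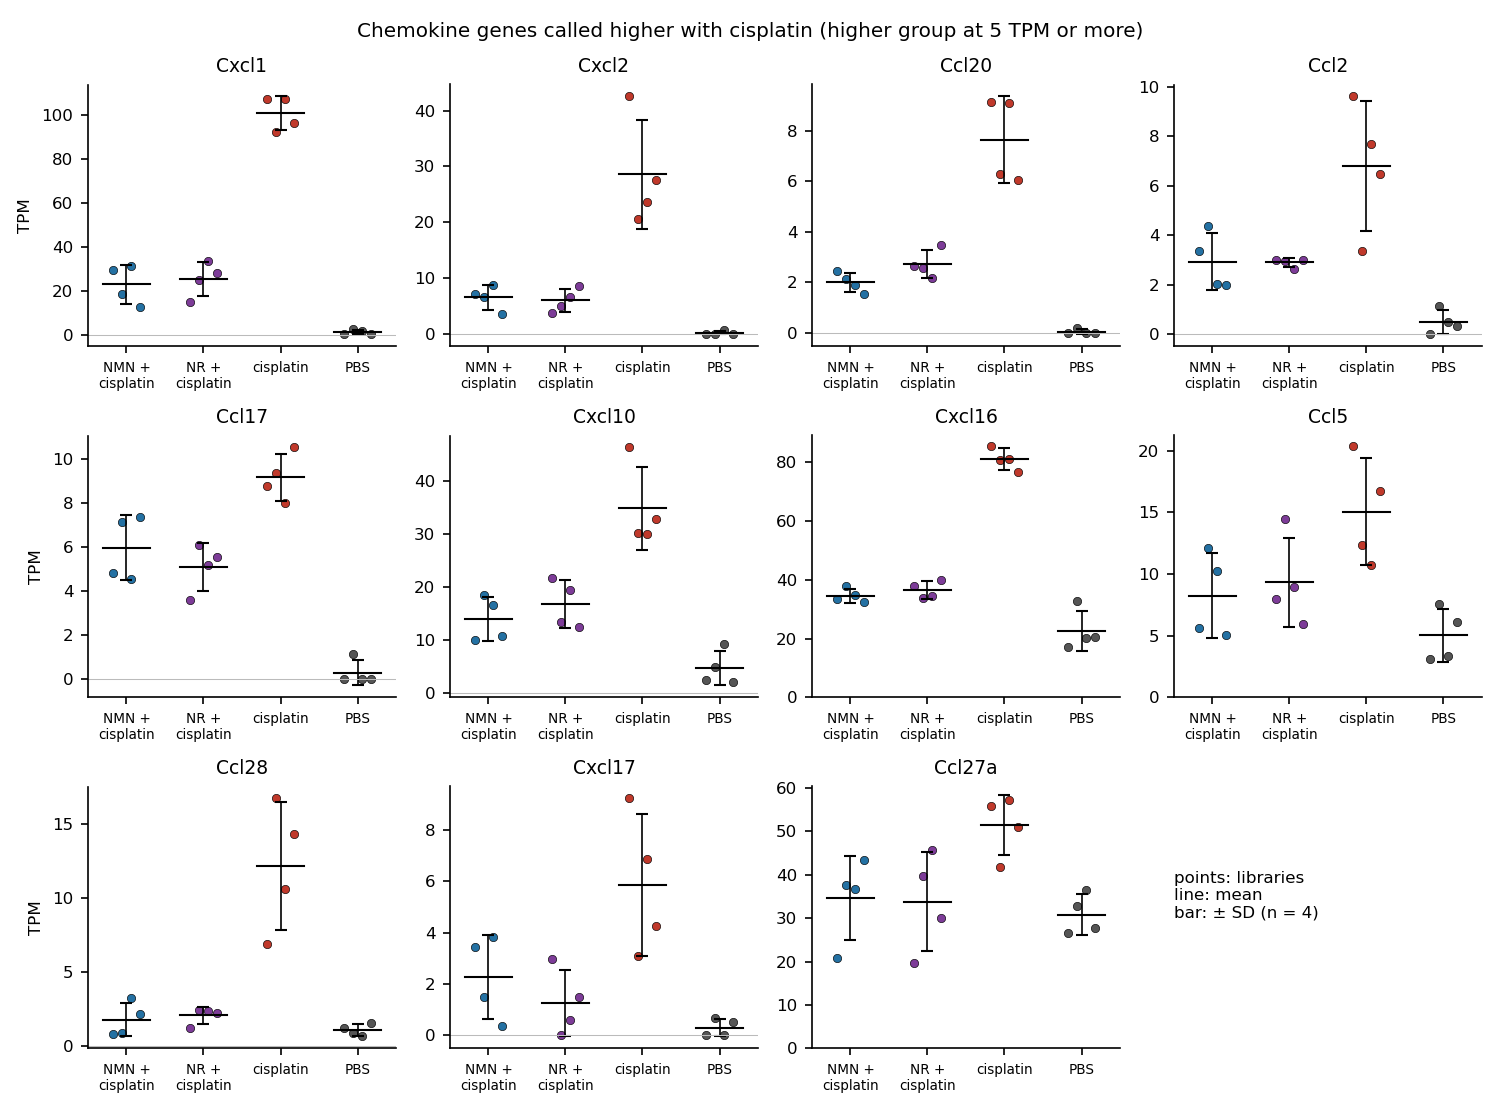
TPM in each library of the 11 members that were called higher with cisplatin and averaged at least 5 TPM there. Points are libraries, lines are means and bars are ± SD (n = 4); each panel has its own axis, and all groups but PBS received cisplatin. Cxcl1 stood between 92.1 and 107 TPM in the cisplatin libraries and at 33.6 TPM or less in all others.

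Tubule markers separated the same groups. All 5 injured tubule markers, among them Havcr1 and Lcn2, were higher with cisplatin, with summed levels of 3316 to 3707 TPM, against 2.30 to 11.64 TPM with PBS. All 8 proximal tubule markers were lower, with sums of 144.63 to 162.60 TPM with cisplatin and 4409 to 4775 TPM with PBS. Fat tissue markers moved as well: 6 of 6 tested adipose markers were higher, at 210.06 to 401.80 TPM with cisplatin and 25.15 to 123.75 TPM with PBS. The lymph node markers stayed at 1.25 TPM or less in sum in every library, with Glycam1 at 0 throughout, and none was tested. The part of these tissues in the ligand changes was not tested.

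Cxcl12 and Cxcl14 are ligands made in resting tissue, and both fell. Cxcl12, which holds Cxcr4-bearing stem and immune cells in place and is made by stromal and endothelial cells, was listed at 2.06, 2.29, 2.62 and 3.42 TPM with cisplatin, against 29.1, 72.4, 93.7 and 57.0 TPM with PBS (log2 change -4.05 ± 0.37, adjusted p = 7.31e-08). Its mean with cisplatin was 0.0412 times that with PBS. Cxcl12 ranked first among all tested members with PBS and 19th with cisplatin. Cxcl14, a chemokine that epithelia and fibroblasts make at rest, was listed at 3.68, 0.91, 3.47 and 1.41 TPM with cisplatin, against 8.14, 22.9, 34.8 and 14.5 TPM with PBS (-2.57 ± 0.45, adjusted p = 0.000104). For both genes every cisplatin library lay below every PBS library. Cxcr4, the receptor of Cxcl12, averaged 3.87 ± 0.826 TPM with cisplatin and 3.69 ± 0.934 TPM with PBS (0.06, 95% half-width 0.46, adjusted p = 0.834). Ackr3, its scavenging second receptor, averaged 14.5 ± 4.48 TPM and 13.4 ± 5.23 TPM in the same order (adjusted p = 0.675). The ligand thus fell without a called change of either receptor.

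Ccl19 and the Ccl21 genes encode the ligands of Ccr7, which guide dendritic cells and naive T cells to lymphatics. Ccl21a was listed at 1.83, 2.65, 1.47 and 0.63 TPM with cisplatin, against 3.95, 17.5, 6.85 and 10.1 TPM with PBS (log2 change -1.90 ± 0.45, adjusted p = 0.00163). Ccl21b was listed at 0 in every cisplatin library and at 2.64 to 8.11 TPM with PBS (-2.48 ± 0.55, adjusted p = 0.000960). Ccl19 averaged 0.41 ± 0.647 TPM with cisplatin and 4.41 ± 2.15 TPM with PBS (-1.93 ± 0.46, adjusted p = 0.00151). All 3 fell, but how their reads were counted is uncertain, since each shares sequence with other genes. Ccl21a and Ccl21b have near-copies, and Ccl19 shares words with its pseudogenes: 71.62% of the 50-base words of Ccl21a, 100% of those of Ccl21b and 51.97% of those of Ccl19 occur in other genes. Ccr7 was listed at 0 in every cisplatin library and at 0 to 0.30 TPM with PBS.

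Cx3cl1, a membrane-bound ligand that is cut from the cell surface, and its receptor Cx3cr1 on kidney macrophages and dendritic cells parted. Cx3cl1 averaged 25.0 ± 3.74 TPM with cisplatin and 26.0 ± 5.64 TPM with PBS (log2 change -0.04 ± 0.18, adjusted p = 0.870), and was called lower after median-of-ratios scaling (-0.34, adjusted p = 0.0425). Cx3cr1 was listed at 0.23, 0.22, 0.26 and 0.15 TPM with cisplatin, against 0.40, 1.06, 1.76 and 0.58 TPM with PBS (-0.63 ± 0.21, adjusted p = 0.0168). With all libraries in the fit it was the only receptor called among the 4 tested, at a level under 1 TPM in both means, and the call ended without PBS library 3 (adjusted p = 0.0733). Ccl25, the thymus and gut ligand of Ccr9, was not called: it averaged 10.5 ± 2.27 TPM with cisplatin and 12.6 ± 5.51 TPM with PBS (adjusted p = 0.631).

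Markers of stromal cells, and some of those listed for dendritic cells, were lower in the same libraries. All 8 endothelial and all 6 fibroblast and pericyte markers were called lower with cisplatin, and 3 of 5 tested dendritic cell markers. These 3 were Cd74, H2-Aa and H2-Ab1. Itgax (-0.16, adjusted p = 0.631) and Zbtb46 (-0.19, adjusted p = 0.553) were not called (limma). Endothelial markers summed to 31.75 to 89.29 TPM with cisplatin and 122.56 to 229.00 TPM with PBS. The fibroblast and pericyte sum was 10.15 to 42.13 TPM with cisplatin and 33.10 to 122.94 TPM with PBS. Cisplatin library 1 had the highest of the 4 cisplatin sums in both lists, 89.29 and 42.13 TPM. It had the highest Cxcl14 value of the group, 3.68 TPM, and the lowest Cxcl12 value, in a range of 2.06 to 3.42 TPM. The endothelial markers changed by -0.97 (Eng) to -2.84 (Plvap), with a median of -1.54. The change was -4.05 for Cxcl12, -2.57 for Cxcl14, -2.48 for Ccl21b, -1.93 for Ccl19 and -1.90 for Ccl21a. The part of these cells in the falls was not tested.

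**Figure D3:**
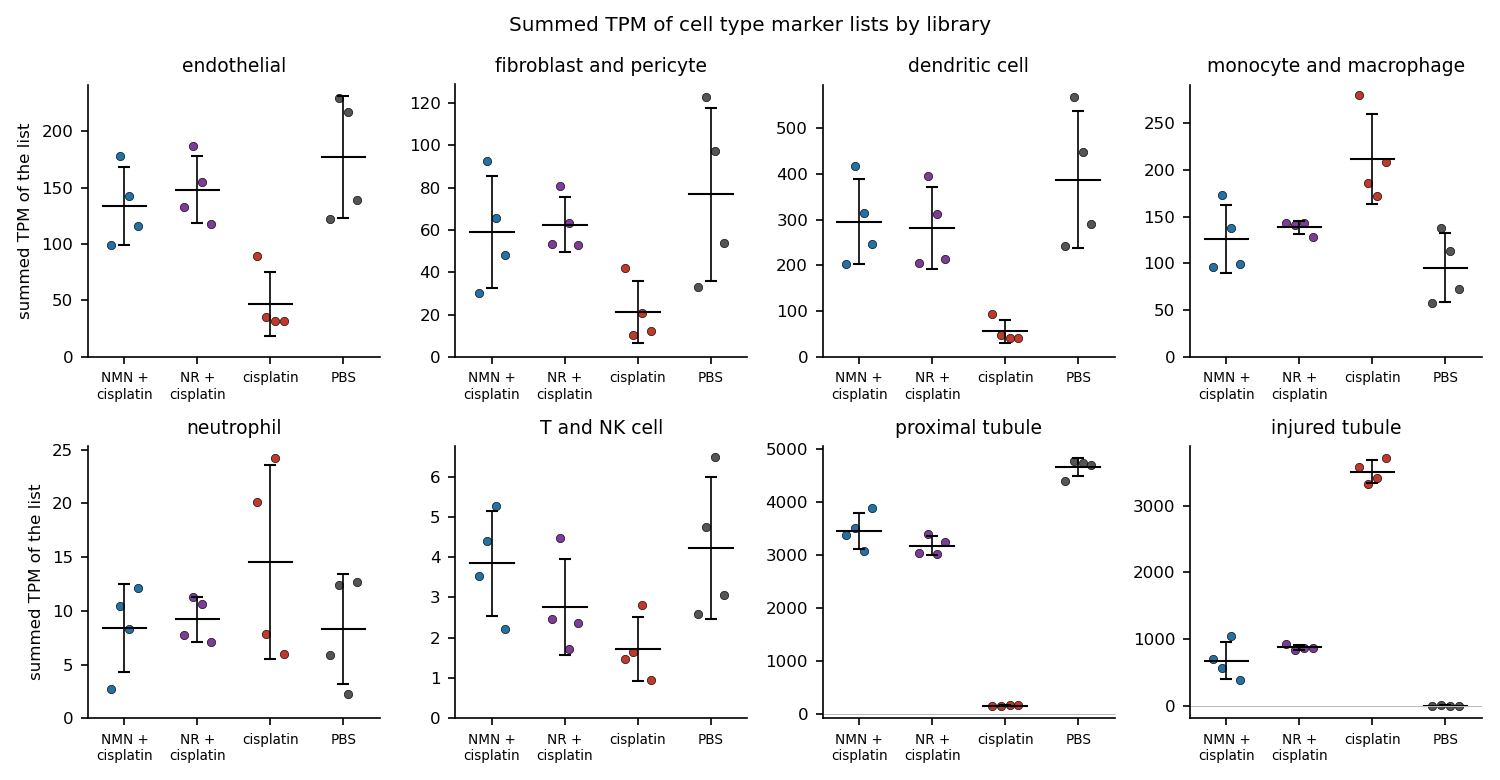
Summed TPM of 8 marker lists in each library; points are libraries, lines are means and bars are ± SD (n = 4), and each panel has its own axis. Injured tubule and proximal tubule sums separated the groups of cisplatin and PBS completely, and neutrophil sums overlapped.

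Receptor genes as a class were scarce in whole kidney. Of the 14 receptors that were not tested, Cxcr1 was listed at 0 in every library, 11 stayed above 0 but under 1 TPM and 2, Ccr1 and Ccr10, reached 1 TPM in 1 to 3 libraries. Ccr1, which reads Ccl5, Ccl6 and Ccl9 on myeloid cells, was at 0.25 to 1.40 TPM with cisplatin and at 0 to 0.24 TPM with PBS. Of the 13 untested ligands Ccl1, Ccl26 and Cxcl15 were listed at 0 in every library, 4 stayed under 1 TPM and 6 reached it in 1 to 3 libraries. The last were Ccl7, Ccl11, Ccl24, Ccl27b, Cxcl9 and Cxcl13, of which Ccl27b was above 0 in NMN library 1 only.

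Of 22 genes that carry the chemokine signal below the receptors 16 were tested, 8 higher and 2 lower with cisplatin, where 40.7% and 18.6% of all tested genes were called higher and lower. Their median change was 0.40, against 0.27 for all tested genes. Gnb1, a subunit of the G proteins that chemokine receptors use, averaged 199 ± 42.0 TPM with cisplatin and 59.6 ± 11.6 TPM with PBS (log2 change 1.72 ± 0.16, adjusted p = 6.08e-08). Rac1, the small GTPase that drives the leading edge of moving cells, averaged 255 ± 23.3 TPM and 105 ± 14.0 TPM in the same order (1.28 ± 0.13). Both genes are used by most cell types of the kidney, not by leukocytes alone. Among 5 genes that cut or hold chemokines at the surface, 3 were higher and 1 lower. Sdc1 and Sdc4, the syndecans whose heparan sulphate binds chemokines, were higher by 2.50 ± 0.18 and 1.51 ± 0.10, and Sdc4 reached 294 ± 21.8 TPM with cisplatin, against 103 ± 9.78 TPM with PBS. Adam10, which cuts Cxcl16 and Cx3cl1 from the membrane, was higher by 0.40 ± 0.15 (adjusted p = 0.0271), and Dpp4, which trims and inactivates several chemokines, was lower (-1.21 ± 0.23, adjusted p = 0.000232). Of the family members that the naming rule does not reach 5 were tested and 1 was called, the non-signalling receptor gene Ccrl2, which was lower (-0.69 ± 0.28, adjusted p = 0.0418). Il1b was the only tested gene of 7 cytokines that induce chemokines, and it was not called (1.05 ± 1.06 TPM with cisplatin and 0.552 ± 0.509 TPM with PBS, adjusted p = 0.472).

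**Figure D4:**
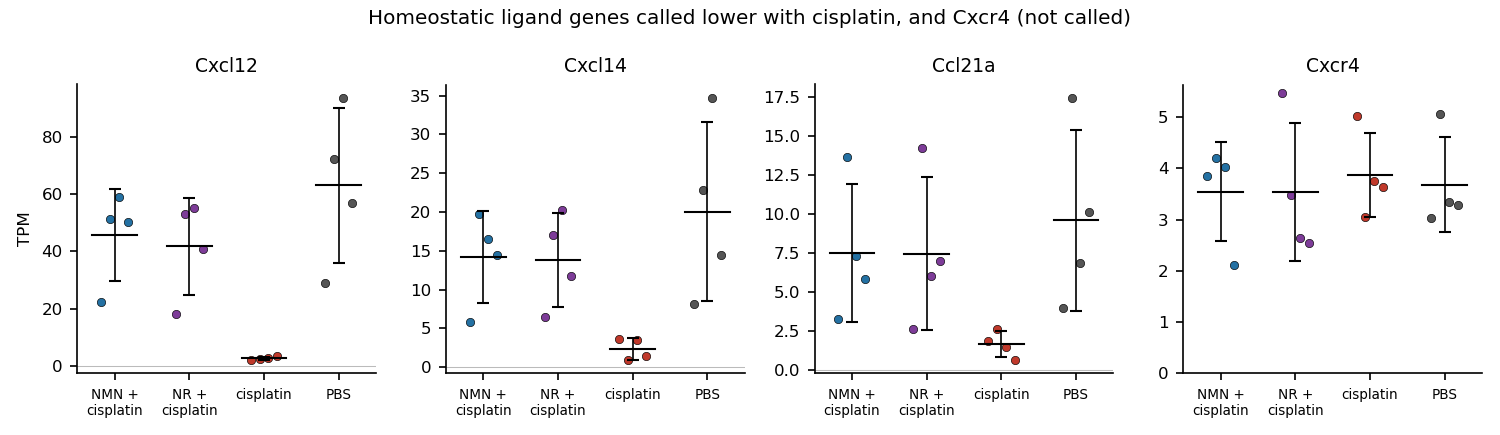
TPM in each library of 3 ligands that were called lower with cisplatin, and of Cxcr4, the receptor of Cxcl12, which was not called. Points are libraries, lines are means and bars are ± SD (n = 4). Cxcl12 lay at 2.06 to 3.42 TPM in the cisplatin libraries and at 18.2 TPM or more in every other library.

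NMN before cisplatin was set against cisplatin alone. Of the 28 tested members 6 were higher and 13 lower with NMN, where 15.1% and 34% of all tested genes were called higher and lower. The calls in either direction made up 67.9% of the members and 49.1% of all tested genes, and the libraries did not overlap for 14 members and for 44.3% of all tested genes. The median change of the members was -0.58, against -0.23 for all tested genes. With NR, 6 were higher and 12 lower, where 14.4% and 32.2% of all tested genes were. The calls in either direction made up 64.3% of the members and 46.6% of all tested genes, the libraries did not overlap for 14 members and for 41.8% of all tested genes, and the median change was -0.54, against -0.20. Both comparisons use the same 4 cisplatin libraries, which also enter the comparison with PBS, so their calls are not independent of one another.

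The Cxcr2 ligands were lower with either precursor. Cxcl1 was listed at 29.5, 18.4, 31.2 and 12.9 TPM with NMN and at 15.1, 24.8, 33.6 and 28 TPM with NR, all below the lowest cisplatin library at 92.1 TPM. Its change from cisplatin alone was -2.16 ± 0.32 with NMN (adjusted p = 2.55e-05) and -2.0 ± 0.32 with NR (adjusted p = 6.80e-05). Cxcl2 was listed at 7.11, 6.54, 8.78 and 3.51 TPM with NMN and at 3.75, 4.97, 6.57 and 8.57 TPM with NR, against at least 20.5 TPM with cisplatin alone (-1.98 and -2.08). Cxcl3 lay between 0 and 0.24 TPM with NMN and between 0 and 0.26 TPM with NR, and Cxcl5 averaged 0.347 ± 0.226 TPM and 0.365 ± 0.385 TPM. All 4 were called lower in both comparisons. The calls of Cxcl3 and Cxcl5 were favoured by the minimum, which only their libraries of cisplatin alone met. The neutrophil marker sums were 2.72 to 12.16 TPM with NMN, 7.14 to 11.31 TPM with NR and 5.95 to 24.25 TPM with cisplatin alone, with 0 of 4 tested markers called in either comparison (limma).

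Ccl20 was listed at 2.45, 2.12, 1.90 and 1.56 TPM with NMN and at 2.63, 2.58, 2.18 and 3.49 TPM with NR, against 6.03 TPM or more with cisplatin alone. The changes were -1.51 ± 0.18 (adjusted p = 2.00e-06) and -1.21 ± 0.18 (adjusted p = 2.84e-05). Cxcl16 was listed at 33.5, 37.8, 34.8 and 32.3 TPM with NMN and at 37.9, 33.9, 34.4 and 40.1 TPM with NR, a narrow band below the cisplatin libraries at 76.6 TPM or more (-1.20 and -1.13). Cxcl10 was listed at 9.99, 18.5, 16.6 and 10.9 TPM with NMN and at 21.8, 13.5, 19.5 and 12.4 TPM with NR (-1.28 and -1.02; adjusted p = 0.00246 and 0.0122). With NR the Cxcl10 call ended without NR libraries 3 and 4 together (adjusted p = 0.0692). Ccl28 was listed at 0.84, 0.91, 3.22 and 2.19 TPM with NMN and at 1.20, 2.44, 2.4 and 2.24 TPM with NR, all below the lowest cisplatin library at 6.88 TPM (-2.26 and -2.06).

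Ccl17 was listed at 4.83, 7.16, 4.58 and 7.39 TPM with NMN and at 3.59, 6.12, 5.21 and 5.57 TPM with NR, close below the cisplatin libraries at 8.0 to 10.55 TPM and without overlap with them. The change was -0.56 ± 0.24 with NMN (adjusted p = 0.0575, not called) and -0.75 ± 0.24 with NR (adjusted p = 0.0152, called). The NMN change was called without PBS library 2 (adjusted p = 0.0161), without NMN library 4 (0.0465), with only these groups in the fit (0.0244) and with a replicate block (0.0268). The NR call ended without NR library 1 (adjusted p = 0.0564), after median-of-ratios scaling (0.0677) and with a pseudocount of 0.1 (0.249). In the direct comparison of NMN with NR, Ccl17 was not called (0.19, 95% half-width 0.50), which does not show equal levels.

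Ccl2 was listed at 3.37, 4.37, 2.04 and 1.99 TPM with NMN and at 3.01, 2.96, 2.66 and 2.99 TPM with NR, and its calls (-0.96 and -0.92; adjusted p = 0.00723 and 0.00959) ended with a pseudocount of 0.1 (0.0902 and 0.111) and, for NR, without NR libraries 3 and 4 (0.0583). The NMN libraries overlapped the lowest cisplatin library, at 3.37 TPM, and the NR libraries did not. Ccl5 was listed at 5.59, 12.1, 10.2 and 5.09 TPM with NMN and at 7.98, 14.5, 8.94 and 5.94 TPM with NR, and overlapped the cisplatin libraries in both groups. It was called lower with NMN (-0.83 ± 0.31, adjusted p = 0.0316) and not with NR (-0.66 ± 0.31, adjusted p = 0.0867). The NMN call of Ccl5 ended without cisplatin library 1 (adjusted p = 0.0993) or 4 (0.0731), without NMN library 1 (0.0957) or 4 (0.108), and after median-of-ratios scaling (0.0922), and for NR a call arose without NR library 2 (0.0320). Monocyte and macrophage markers summed to 96.55 to 173.17 TPM with NMN, 128.39 to 142.69 TPM with NR and 171.51 to 280.03 TPM with cisplatin alone. Cd68 led these sums, at 34.5 ± 12.4 TPM, 34.1 ± 4.87 TPM and 105 ± 11.3 TPM in the same order. Of the 12 markers 2 were higher and 2 lower with NMN (median change 0.24). With NR 3 were higher and 2 lower (median change 0.31). The part of these cells in the lower Ccl2 and Ccl5 was not tested.

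Cxcl17 was listed at 3.44, 1.49, 3.83 and 0.35 TPM with NMN and at 2.97, 0, 0.61 and 1.47 TPM with NR. It was called lower with NMN (-1.14 ± 0.43, adjusted p = 0.0369) and with NR (-1.69 ± 0.43, adjusted p = 0.00405), and the NMN call ended without cisplatin library 1 (0.113) or 3 (0.0837) without NMN library 2 (0.0791) or 4 (0.143), after median-of-ratios scaling (0.0867) and with a pseudocount of 0.1 (0.173). The NMN libraries overlapped the lowest cisplatin library, at 3.08 TPM, and the NR libraries lay just below it. Ccl27a was listed at 20.8, 37.7, 36.8 and 43.4 TPM with NMN and at 19.8, 39.7, 45.6 and 30.1 TPM with NR, and 1 library of each group passed the lowest cisplatin library at 41.8 TPM. Its calls (-0.60 and -0.65; adjusted p = 0.0427 and 0.0304) stood on single libraries: with NMN it ended without cisplatin library 1, 3 or 4, NMN library 1 or 3, or NR library 4 (adjusted p from 0.0503 to 0.169), and with NR without cisplatin library 1, 3 or 4 or NR library 1 or 4 (0.0547 to 0.120). Both also ended after median-of-ratios scaling (0.196 and 0.119). Ccl9 was lower with NMN only, with 0.40, 0.54, 0.57 and 0.39 TPM there, 1.81, 1.11, 2.91 and 2.50 TPM with NR and 3.86, 4.47, 1.08 and 2.4 TPM with cisplatin alone. The Ccl9 change was -1.33 ± 0.43 with NMN (adjusted p = 0.0158; 0.0517 without cisplatin library 2) and -0.30 ± 0.43 with NR (adjusted p = 0.590).

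The 5 ligands that cisplatin lowered were higher with either precursor. Cxcl12 was listed at 22.3, 51.2, 59.0 and 50.2 TPM with NMN and at 18.2, 53.0, 55.1 and 40.8 TPM with NR, against 3.42 TPM or less with cisplatin alone. Its change was 3.63 ± 0.37 with NMN (adjusted p = 7.11e-07) and 3.47 ± 0.37 with NR (adjusted p = 1.49e-06), and its mean was 17.6-fold and 16.1-fold that with cisplatin alone. Cxcl14 was listed at 5.87, 19.8, 16.6 and 14.5 TPM with NMN and at 6.46, 17.0, 20.2 and 11.8 TPM with NR (2.16 and 2.14). Both genes lay clear of the cisplatin libraries in all 8 precursor libraries. Ccl21a was listed at 3.24, 13.7, 7.29 and 5.83 TPM with NMN and at 2.65, 14.2, 6.02 and 6.98 TPM with NR (1.60 and 1.56; adjusted p = 0.00726 and 0.00938), and NR library 1 equalled the highest cisplatin library. Ccl19 and Ccl21b were called higher in both comparisons as well, by 1.66 and 1.59 with NMN and by 1.54 and 1.43 with NR.

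Some of these calls rest on few libraries. Without NR libraries 3 and 4, the NR calls of Ccl19 (adjusted p = 0.0646), Ccl21a (0.0532) and Ccl21b (0.128) ended. The NMN call of Ccl21b ended without NMN library 2 (0.0893) or 4 (0.0659), and its NR call ended in 11 of the 16 fits that left out 1 library, all but those without PBS library 1 or 2, NMN library 1 or 2, or NR library 1. Cx3cr1 averaged 0.792 ± 0.319 TPM with NMN and 0.897 ± 0.234 TPM with NR, against 0.215 ± 0.0465 TPM with cisplatin alone, and was called higher in both (0.54 and 0.64; adjusted p = 0.0433 and 0.0215). Its NMN call ended without PBS library 2, any cisplatin library, NMN library 2 or 3, or NR library 4 (adjusted p from 0.0511 to 0.117), and its NR call without NR library 2 (0.0617).

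Stromal markers, and some of those listed for dendritic cells, were also higher with the precursors. All 8 endothelial markers were called higher in both comparisons, and their sums were 98.92 to 178.22 TPM with NMN, 117.99 to 186.89 TPM with NR and 31.75 to 89.29 TPM with cisplatin alone. Of 6 fibroblast and pericyte markers 5 were higher with NMN and 6 with NR. Dendritic cell markers, 3 of 5 of them higher in each comparison, summed to 202.30 to 417.03 TPM with NMN, 205.67 to 396.18 TPM with NR and 40.49 to 92.95 TPM with cisplatin alone. Cd74 led these dendritic cell sums, at 171 ± 53.2 TPM, 156 ± 48.3 TPM and 31.2 ± 14.2 TPM in the same order. Itgax averaged 1.04 ± 0.701 TPM, 1.025 ± 0.347 TPM and 0.632 ± 0.424 TPM. Zbtb46 averaged 2.36 ± 1.42 TPM, 2.11 ± 0.405 TPM and 1.67 ± 0.512 TPM. All 5 injured tubule markers were lower in both comparisons. They summed to 387.03 to 1042 TPM with NMN and 841.62 to 929.37 TPM with NR, against 3316 TPM or more with cisplatin alone. Adipose markers summed to 25.63 to 104.45 TPM with NMN, and to 23.21, 109.75, 391.74 and 243.92 TPM in NR libraries 1 to 4. The part of these cells in the changes of the ligands was not tested.

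Members with no call in cisplatin against PBS had, apart from Ccl9, none with a precursor either. Cx3cl1 averaged 25.2 ± 6.16 TPM with NMN and 28.5 ± 0.996 TPM with NR, and was called higher with NR after median-of-ratios scaling alone (0.39, adjusted p = 0.0281). Cxcr4 averaged 3.55 ± 0.962 TPM with NMN and 3.54 ± 1.35 TPM with NR. Ccl25 averaged 11.1 ± 3.54 TPM and 7.93 ± 1.80 TPM, Ccl6 5.02 ± 2.57 TPM and 5.70 ± 2.23 TPM, Ccl8 1.24 ± 1.85 TPM and 2.10 ± 2.4 TPM, and Ccl12 0.932 ± 0.816 TPM and 0.522 ± 0.582 TPM. The receptor Ccr2 averaged 1.14 ± 0.460 TPM with NMN and 1.16 ± 0.205 TPM with NR. Of the 16 tested signalling genes 7 were lower and 0 higher with NMN, where 34% and 15.1% of all tested genes were. With NR 7 were lower and 1, Arrb1, was higher, where 32.2% and 14.4% of all tested genes were. Sdc1 was lower with NMN (-1.60 ± 0.18) and with NR (-1.42 ± 0.18), and so was Sdc4 (-1.05 ± 0.10 and -0.84 ± 0.10). Dpp4 was higher in both, by 1.27 ± 0.23 and 1.20 ± 0.23.

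Compared with PBS, 7 members were higher with NMN and 7 with NR, and 0 were lower in either (limma; 8 members had an unadjusted p under 0.05 in each comparison). These are 25% of the tested members. Of all tested genes 5.89% were higher with NMN and 8.79% with NR, 0.116% and 1.21% were lower, and 6% and 10% were called in either direction. The libraries did not overlap for 6 members with NMN, against 10.2% of all tested genes, and for 7 members with NR, against 14.8%. The called members carry the same names in both: Cxcl1, Cxcl2, Ccl20, Ccl17, Cxcl10, Cxcl16 and Ccl2. Both comparisons use the same PBS libraries. Cxcl1 was higher than with PBS by 3.45 ± 0.32 with NMN (adjusted p = 9.32e-07) and by 3.61 ± 0.32 with NR (adjusted p = 4.39e-07), and Cxcl2 by 2.69 ± 0.27 and 2.59 ± 0.27. Ccl17 was higher by 2.51 ± 0.24 and 2.32 ± 0.24, Ccl20 by 1.51 ± 0.18 and 1.82 ± 0.18, Cxcl10 by 1.5 ± 0.31 and 1.76 ± 0.31, and Ccl2 by 1.40 ± 0.27 and 1.43 ± 0.27. The smallest of the 7 was Cxcl16, higher by 0.63 ± 0.15 with NMN (adjusted p = 0.0111) and by 0.71 ± 0.15 with NR (adjusted p = 0.00319). Its NMN call ended with only these groups in the fit (adjusted p = 0.0694) and without PBS library 1 (0.05, and 0.0593 with cisplatin library 1 also left out). Cxcl17, at 1.21 ± 0.43 with NMN (adjusted p = 0.133), was called only without NMN library 4 (0.0260).

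None of the 5 ligands that cisplatin lowered was called against PBS with NMN or with NR (limma). Cxcl12 averaged 45.7 ± 16.1 TPM with NMN, 41.8 ± 16.9 TPM with NR and 63.1 ± 27.2 TPM with PBS (-0.43 and -0.58, 95% half-width 0.79 each; adjusted p = 0.652 and 0.401). Cxcl14 averaged 14.2 ± 5.95 TPM, 13.9 ± 6.05 TPM and 20.1 ± 11.5 TPM in the same groups, and Ccl21a 7.51 ± 4.44 TPM, 7.47 ± 4.88 TPM and 9.60 ± 5.82 TPM. The groups overlapped for all 3, and the intervals are wide, so that equal levels are not shown.

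On the scale from the PBS mean (0%) to the mean with cisplatin alone (100%), the precursor libraries kept unequal parts of the rise. Ccl17 kept 64.1% with NMN and 54.4% with NR, with single libraries from 48.3% to 79.9% and from 37.2% to 65.6%. Ccl2 kept 38.8% and 38.2%, Cxcl10 30.6% and 40.0%, and Ccl20 25.8% and 35.2%. Cxcl1, Cxcl2 and Cxcl16 kept 21.9%, 22.3% and 20.6% with NMN and 24.3%, 20.5% and 23.9% with NR. At the other end Ccl28 kept 6.4% with NMN and 8.93% with NR, and Cxcl3 3.15% and 4.25%. The low share of Cxcl3 was favoured by the minimum, which only its libraries of cisplatin alone met. These shares are descriptions on the TPM scale that lean on the same PBS and cisplatin means, and the differences between genes were not tested.

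**Figure D5:**
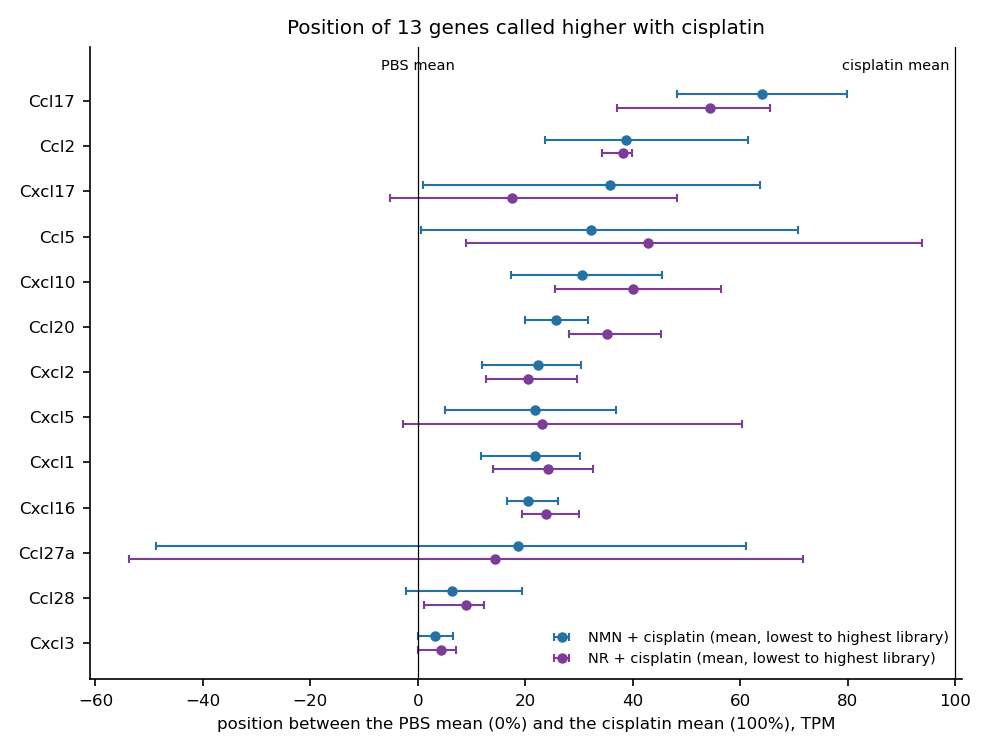
Position of the NMN (blue) and NR (violet) libraries between the PBS mean (0%) and the mean with cisplatin alone (100%), in TPM, for the 13 members called higher with cisplatin. Points are group means and lines run from the lowest to the highest library (n = 4). Ccl17 stood at 64.1% with NMN and 54.4% with NR, and Cxcl3 at 3.15% and 4.25%. Cxcl3 and Cxcl5 met the minimum for testing through the libraries of cisplatin alone.

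Between NMN and NR, 0 of the 28 members were called (limma; 1 had an unadjusted p under 0.05), as were 0% of all tested genes. That member was Ccl9, at 0.40, 0.54, 0.57 and 0.39 TPM with NMN and 1.81, 1.11, 2.91 and 2.50 TPM with NR. The groups did not overlap, which held for 1.64% of all tested genes, and the change was -1.03 ± 0.43 (limma, adjusted p = 1.00). For Cxcl1 the difference of NMN minus NR was -0.17 with a 95% half-width of 0.67, for Cxcl2 0.10 with 0.57, for Ccl17 0.19 with 0.50 and for Cxcl12 0.16 with 0.79 (log2). A missing call here does not show that the precursors act alike on these genes, and the half-widths give the size of difference that the 4 libraries a group could leave unseen.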

How the data were processed

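Total RNA of whole mouse kidney was sequenced in 16 TruSeq libraries, per the labels' protocols. The authors deposited 1 table of TPM with 23982 entries, of which those sharing a symbol (94) were summed here. The submitters' processing notes name DESeq2 1.10.1, HTSeq 0.6.1, STAR 2.4.1d and Trim Galore, and the builds GRCm38 and mm10; the sources used here do not give their roles, the annotation, the gene lengths or the strand setting. TPM hold no depth, so counting intervals cannot be given and no count model was run.

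Groups were taken from the sample labels. Values were set to log2(TPM + 1) and fitted with limma 3.58.1 (R 4.3.3, statmod 1.5.0): 4 group means, 12 residual degrees of freedom, trended and robust moderation, two-sided tests with Benjamini-Hochberg adjustment over all 12960 tested genes. The fit was tested on simulated data. Members are named by role; per-library TPM are given for members called in cisplatin against PBS whose libraries do not overlap and whose higher group averages at least 5 TPM, and the rest by mean ± SD, range or count. Ccl6, Cx3cr1 and Ccl9 were given per library in addition, after their values were seen. The values of 1 tested member are not reported here. The members and all gene and marker lists were chosen with earlier results of these data known. Positions, exon overlaps and shared 50-base words come from GENCODE vM21 (all 55 members matched), and promoters from RefSeq. Same-numbered libraries were not treated as pairs. Alternatives were another scaling, pseudocount and minimum, other fits, and each library left out.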

Additional observations from a re-analysis of the deposited data

Results flagged for a closer look

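Within each group of 4 libraries, the highest or lowest value was marked when its gap to the nearest other library passed Dixon's 95% critical value. This marked 13 of the 158 groups looked at. The critical value marks about 1 in 20 groups by chance only for normally distributed values, not for values with a floor at 0. Where all other libraries of a group are at 0, any value above 0 is marked. The count of marks can therefore not be read against that rate. Among the PBS libraries, library 2 stood apart for Ccl17 (1.14 TPM, others at 0), Ccl20 (0.21 TPM, others at 0), Ccl6 (8.82 TPM, others 2.02 to 2.96), Cxcl5 (0.16 TPM, others at 0) and Cxcr4 (5.07 TPM, others 3.03 to 3.35). PBS library 3 stood apart for Cxcl2 (0.57 TPM, others at 0). Cisplatin library 1 stood apart for Ccl8 (14.17 TPM, others at 0) and for the summed markers of dendritic cells (92.95 TPM, others 40.49 to 47.25) and endothelium (89.29 TPM, others 31.75 to 34.86). With NMN, library 4 was low in Cxcr4 (2.12 TPM, others 3.85 to 4.20). With NR, library 3 was low in Ccl2 (2.66 TPM, others 2.96 to 3.01), library 1 in Ccl28 (1.20 TPM, others 2.24 to 2.44) and library 4 in the summed monocyte and macrophage markers (128.39 TPM, others 141.41 to 142.69).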

How the results depend on the processing

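Across 25 alternatives, 52 of the 70 called results of single members kept their call each time, and no called result changed sign; most calls that ended are given beside each gene. Leaving out 1 library at a time gave 13 to 15 members higher and 5 to 6 lower in cisplatin against PBS, 4 to 6 higher and 10 to 14 lower in NMN against cisplatin, and 4 to 6 higher and 10 to 13 lower in NR against cisplatin. Against PBS it gave 6 to 8 members with NMN and 7 with NR. With a minimum of 5 TPM, 8 members were lower in NMN against cisplatin, where 16 members could be tested. Without NR libraries 3 and 4, chosen after seeing the data for their adipose markers, 3 were higher in NR against cisplatin; the cause was not tested. With no minimum, Ccl7, Ccr1, Cxcl11 and Cxcr2 were also called higher and Cxcr3 lower in cisplatin against PBS. This setting added Ccr7, Cxcr3 and Cxcr6 as higher and Cxcr2 as lower in NMN against cisplatin. In NR against cisplatin it added Cxcr3 as higher and Cxcl11 and Cxcr2 as lower, and in NR against PBS it added Ccl11. It also ended the calls of Ccl5, Ccl27a and Cxcl17 in NMN against cisplatin (adjusted p = 0.0521, 0.0682 and 0.0588) and of Ccl21b and Ccl27a in NR against cisplatin (0.0660 and 0.0509). Without PBS library 1 and cisplatin library 1, chosen after seeing the data, the calls of Ccl5, Ccl27a, Cxcl17 and Cx3cr1 with NMN (0.0935, 0.0992, 0.122 and 0.0506) and of Ccl21b and Ccl27a with NR (0.0721 and 0.0765) ended. That of Cx3cr1 with NMN also ended without NR libraries 3 and 4 (0.0551), and that of Ccl27a with NMN without trended and robust moderation (0.0528).

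With a replicate block, 14 members were higher and 6 lower in cisplatin against PBS, 6 higher and 14 lower in NMN against cisplatin, and 6 higher and 12 lower in NR against cisplatin; against PBS, 7 were called with NMN and 7 with NR, and 0 between NMN and NR. The block added Ccl6 in cisplatin against PBS (adjusted p = 0.0404) and Ccl17 in NMN against cisplatin (0.0268). Of 24 pairs of same-numbered libraries 9 had correlated deviations over 0.1 (median 0.0678), and 13 of 16 libraries correlated best with their own number, a hint from the data and not from the design. TPM hold no depth, and genes near 0 TPM limit what can be said of most receptors.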

Other observations

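For Cxcl12, Cxcl14, Ccl19, Ccl21a and Ccl21b, library 1 held the lowest value with NMN, with NR and with PBS. For Cxcl12 these values were 22.3, 18.2 and 29.1 TPM, beside at least 50.2, 40.8 and 57.0 TPM in the other libraries of those groups. With cisplatin alone, library 1 was the lowest for Cxcl12 and the highest for Cxcl14. Library 1 also held the lowest sum of fibroblast and pericyte markers with NMN (30.00 TPM) and with PBS (33.10 TPM), but not with NR, where library 1 had 53.46 TPM and library 4 had 52.64 TPM. The labels do not say what the library numbers stand for, and this was noticed after the values were seen and not tested.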
